A study of Mus musculus with 8 samples.

Results

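The genes described are 44 interferon response genes of the mouse, picked by symbol from the expression table of the study, which lists 24421 genes. All 44 were found and all passed the filter on low values, a mean of at least 1 normalized read in at least 1 group. A normalized read is a read counted for a gene after each library has been scaled by its size factor. The genes were measured by RNA sequencing in cells sorted from the back skin of 4 C57BL/6J mice, and they were compared over the 4 groups that this design gives. The groups were EGFP+ cells of 2 UVB-treated mice, EGFP+ cells of 2 mock-treated mice, tdTomato+ cells of the same 2 UVB-treated mice and tdTomato+ cells of the same 2 mock-treated mice. All 4 mice carried the ROSA mTmG reporter with Tyr:CreERT2. In that reporter every cell carries a membrane tdTomato until Cre removes it and turns on a membrane EGFP, and the tyrosinase promoter drives this tamoxifen-dependent Cre in melanocytes, so the submitters call EGFP+ cells melanocytes and tdTomato+ cells other skin cells. Every mouse had tamoxifen daily for 10 days from day 21 after birth, had its hair removed on day 50 and gave its skin on day 54. In between, UVB of 150 mJ/cm2 or a mock treatment with normal light was given for 3 days. "UV" and "no UV" name these arms below. All groups thus share the tamoxifen and the hair removal.

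Interferons are secreted when a cell senses viral or misplaced nucleic acid. Type I and type III interferons act through receptors that switch on STAT2, which joins IRF9 in a complex that binds a DNA element called the interferon-stimulated response element. Interferon gamma acts through another element, the gamma-activated sequence. The genes turned on in this way hold RNA and DNA sensors, transcription factors, antiviral enzymes, membrane proteins and GTPases, together with proteins that shut the signal off. Several of them are also kept at a basal level without infection, and in skin they can respond to damage by ultraviolet light.

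Depth lay between 11186363 and 16711981 reads per library, and the 44 genes took between 0.223% and 0.344% of them. The sorted populations carried their markers. Summed over 9 melanocyte markers, tdTomato+ libraries reached 4.09% and 7.22% of the EGFP+ library of the same mouse with UV, and 1.06% and 0.45% without UV. Summed over 6 keratinocyte markers, EGFP+ libraries reached 0.267% and 0.404% of the tdTomato+ library of the same mouse with UV, and 0.299% and 0.234% without UV. EGFP+ replicate 2 with UV stood apart with 11186 genes detected, the fewest of the 8 libraries, and with 9 of the 44 genes at 0 reads. Mouse 1, a no UV mouse, had 477 and 1103 reads of Xist, the RNA that coats the inactive X, against 4 or fewer in libraries of the other mice, so in the UV comparisons the sex of the mice and the treatment cannot be fully told apart. These are bulk libraries, in which fewer cells of a type and less RNA per cell cannot be told apart.

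The interferon response genes did not move together between the sorted populations. Over all 4 mice, 15 of the 44 were higher and 8 were lower in EGFP+ than in tdTomato+ cells at an adjusted p under 0.05, and 21 did not pass. Among all 18070 genes tested, 9.66% were higher and 19.2% were lower, 28.9% in all, beside 52.3% of the 44. The median log2 difference was 0.777 over the 44 genes and -0.334 over all genes tested. In 12 of the 44 all EGFP+ libraries lay above all tdTomato+ libraries and in 7 they all lay below, 27.3% and 15.9% against 9.8% and 18% of all genes tested (27.8% in all). Without no UV EGFP+ replicate 1 the count of higher genes was 9, and without UV EGFP+ replicate 1 the median was 0.218. Leaving out both libraries of mouse 1, the mouse with reads of Xist, kept 1 library in each no UV group. The calls of Usp18, Socs1, Mx2, Ifi27, Rtp4, Gbp2, Iigp1 and Parp9 then did not hold. Their log2 differences were 2.34, -1.84, 2.54, -1.48, 2.34, 2.56, 1.89 and 1.11, beside the values over all mice given below. The higher genes held interferon-inducible GTPases, STAT2 with its partner IRF9, and antiviral effectors such as Bst2 and Rtp4. The lower ones held members of the DNA-binding Ifi200 family, the interferon-induced transmembrane proteins, Irf1 and Socs1.

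**Figure D1:**
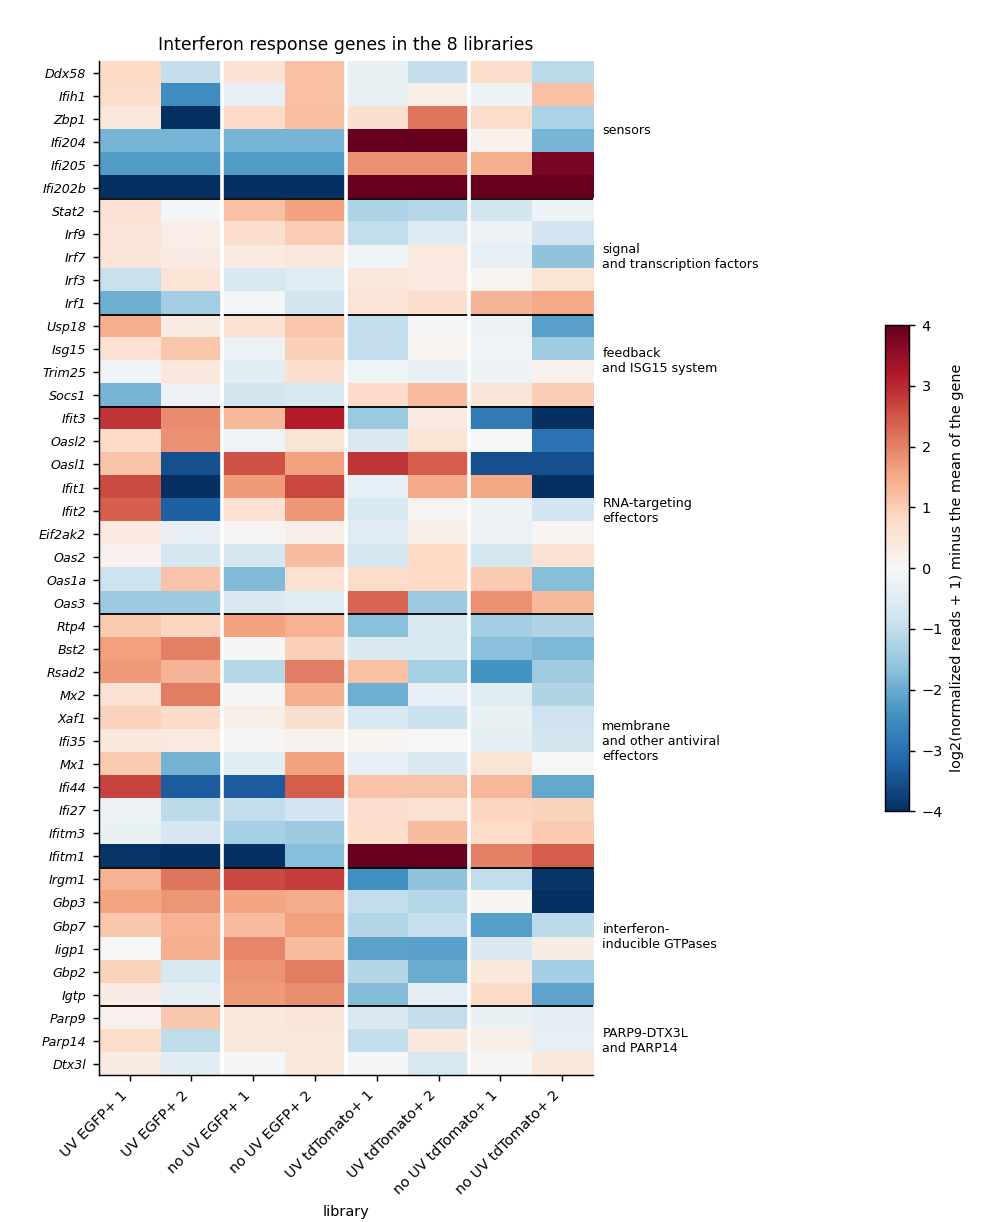
Each row is 1 of the 44 interferon response genes, grouped by role, and each column is 1 of the 8 libraries. Colour gives log2(normalized reads + 1) minus the mean of the gene over the libraries, red above and blue below it, with colours held at 4 units; Irgm1, Gbp7 and Rtp4 are red in EGFP+ columns, Ifi202b and Ifitm1 are blue there, and UV EGFP+ replicate 2 is blue for Ifit1, Oasl1 and Zbp1.

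Promoter windows from RefSeq (build GRCm38.p6, 250 bases before to 50 bases after a start site) were matched to 33 of the 44 genes by symbol. The core of the interferon-stimulated response element was searched as GAAA, any 2 bases and GAAA or, on the other strand, TTTC, any 2 bases and TTTC, and the gamma-activated sequence as TTC, any 3 bases and GAA, which reads the same on both strands. The first was present for 19 of 33 genes (57.6%), against 3.99% of all 27025 genes with a window, and the second for 10 of 33 (30.3%), against 9.55%. By the population comparison, the response element core stood in 7 of 10 windows of genes higher in EGFP+ cells, in 3 of 6 of genes lower there and in 9 of 17 of genes that did not pass. The stretches below reach 30 bases to either side of the motif where the window allows, lie before the start site, run 5′ to 3′ along the gene and are shown because interferon elements stood before genes of either direction. The first 4 belong to genes higher in EGFP+ cells, with the response element core in capitals. In Bst2 the core overlaps a gamma-activated sequence.
Gbp7, chr3:142530253-142530322, plus strand: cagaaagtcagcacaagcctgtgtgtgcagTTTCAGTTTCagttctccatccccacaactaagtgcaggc
Bst2, chr8:71537557-71537632, minus strand: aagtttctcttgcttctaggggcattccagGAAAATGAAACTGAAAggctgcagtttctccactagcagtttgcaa
Ifit3, chr19:34583343-34583446, plus strand: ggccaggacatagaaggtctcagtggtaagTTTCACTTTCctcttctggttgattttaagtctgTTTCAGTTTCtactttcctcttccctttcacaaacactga
Stat2, chr10:128270248-128270315, plus strand: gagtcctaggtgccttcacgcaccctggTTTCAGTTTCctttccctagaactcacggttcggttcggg
The next belongs to Isg15, which did not pass by limma, with 3 overlapping copies of the core in capitals.
Isg15, chr4:156200845-156200926, minus strand: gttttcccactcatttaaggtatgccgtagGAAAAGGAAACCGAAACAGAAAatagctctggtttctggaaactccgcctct
The last 2 belong to genes lower in EGFP+ cells. Capitals mark the response element core in Socs1 and the gamma-activated sequence in Irf1.
Socs1, chr16:10785574-10785649, minus strand: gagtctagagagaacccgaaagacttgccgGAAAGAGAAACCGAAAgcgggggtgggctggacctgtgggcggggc
Irf1, chr11:53769894-53769962, plus strand: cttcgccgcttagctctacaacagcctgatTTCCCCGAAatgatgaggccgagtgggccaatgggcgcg
A match describes these letters and does not show that a factor was bound.

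GTPases that interferon induces, which act on the membranes around pathogens, were mostly higher in EGFP+ cells. Of 6, 5 were higher and none was lower, 83.3% against 28.9% of all genes tested, with a median log2 difference of 2.48. Counts of the groups and lists below stand beside the same share, 9.66% higher and 19.2% lower. Differences are given below on the log2(normalized reads + 1) scale, EGFP+ minus tdTomato+, with the standard error and the adjusted p of limma. Irgm1, which guards autophagy and phagosomes, had 3430.4 and 5724 normalized reads (UV) and 8124 and 8777 (no UV) in EGFP+ cells, against 237 and 426 (UV) and 652 and 87.1 (no UV) in tdTomato+ cells. All 4 EGFP+ libraries lay above all 4 tdTomato+ libraries, and the difference was 4.47 ± 0.55 (adjusted p = 0.000517). Gbp7, a guanylate-binding protein, had 620.0 and 768 normalized reads (UV) and 697 and 917 (no UV) in EGFP+ cells, against 131 and 154 (UV) and 63.6 and 143 (no UV) in tdTomato+ cells. Its populations did not overlap either (2.66 ± 0.31, adjusted p = 0.000365), and no UV tdTomato+ replicate 1 was the lowest library. Iigp1, which attacks the vacuoles of intracellular parasites, had 382 and 1054 normalized reads (UV) and 1502 and 917 (no UV) in EGFP+ cells, against 88.0 and 86.2 (UV) and 261 and 479.6 (no UV) in tdTomato+ cells. The UV EGFP+ library of replicate 1 lay below the no UV tdTomato+ library of replicate 2, so the populations overlapped, with a difference of 2.29 ± 0.37 (adjusted p = 0.0022). Gbp3 had 319.6 and 363 normalized reads (UV) and 322 and 300.4 (no UV) in EGFP+ cells, against 53.1 and 47.3 (UV) and 113 and 4.28 (no UV) in tdTomato+ cells. EGFP+ libraries were all above, and a single tdTomato+ library without UV was far below the other three (3.20 ± 0.84, adjusted p = 0.0211). Gbp2 had 782 and 269 normalized reads (UV) and 1465 and 1739 (no UV) in EGFP+ cells, against 187 and 105 (UV) and 564 and 163 (no UV) in tdTomato+ cells. Here the lowest EGFP+ library, replicate 2 with UV, lay below the highest tdTomato+ library, replicate 1 without UV (2.05 ± 0.47, adjusted p = 0.0119). Leaving out single libraries ended the call of Gbp3 in 5 of 8 cases, up to an adjusted p of 0.137 without no UV EGFP+ replicate 1, and that of Gbp2 in 5 of 8, up to 0.107 without UV tdTomato+ replicate 2. Igtp, the remaining GTPase, did not pass (1.74 ± 0.60, adjusted p = 0.0625 by limma) and passed with the mouse as a block (adjusted p = 0.0499), by edgeR (0.0322) and by DESeq2 (0.0338), without the 20 most abundant genes in the scaling and without no UV tdTomato+ replicate 1.

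Among signal and transcription factors the partners of the type I interferon complex were higher in EGFP+ cells and Irf1 was lower, 2 higher and 1 lower of 5. Irf9, the DNA-binding partner of STAT2, had 1231 and 1037 normalized reads (UV) and 1409 and 1739 (no UV) in EGFP+ cells, against 429.8 and 591 (UV) and 732 and 502 (no UV) in tdTomato+ cells. Every EGFP+ library lay above every tdTomato+ library (1.26 ± 0.20, adjusted p = 0.00206). Stat2 had 310.4 and 199 normalized reads (UV) and 467 and 627 (no UV) in EGFP+ cells, against 87.0 and 93.7 (UV) and 123 and 181 (no UV) in tdTomato+ cells. The populations were again apart (1.65 ± 0.30, adjusted p = 0.00376), and inside both of them the UV libraries were the lower ones. Irf1, a factor that interferon gamma and other stress signals induce, had 796 and 1172 normalized reads (UV) and 2934 and 1813 (no UV) in EGFP+ cells, against 4516 and 4958 (UV) and 7899 and 8755 (no UV) in tdTomato+ cells. All EGFP+ libraries lay below all tdTomato+ libraries (-2.07 ± 0.19, adjusted p = 0.000112), and in both populations both UV libraries lay below both no UV libraries. Irf7, which amplifies interferon production, and Irf3, which starts it, did not pass (0.81 ± 0.32, adjusted p = 0.0906, and -0.73 ± 0.32, adjusted p = 0.126).

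Feedback genes and the ISG15 system, in which a ubiquitin-like tag is put on proteins and taken off again, gave 1 higher and 1 lower gene of 4. Socs1, an inhibitor of Janus kinases, had 57.9 and 182 normalized reads (UV) and 127 and 135 (no UV) in EGFP+ cells, against 360.1 and 505 (UV) and 294 and 422 (no UV) in tdTomato+ cells. Each EGFP+ library lay below each tdTomato+ library (-1.73 ± 0.40, adjusted p = 0.0115). Usp18, the protease that removes ISG15 and blocks the type I receptor, had 399 and 179 normalized reads (UV) and 219 and 316 (no UV) in EGFP+ cells, against 73.3 and 140.0 (UV) and 122 and 31.4 (no UV) in tdTomato+ cells. The EGFP+ libraries lay above (1.73 ± 0.52, adjusted p = 0.0372), and with the mouse as a block the adjusted p was 0.0528. Both calls were lost without 6 of the 8 single libraries, up to an adjusted p of 0.0849 for Socs1 without UV tdTomato+ replicate 2 and of 0.174 for Usp18 without UV tdTomato+ replicate 1. Isg15 itself had 409 and 601 normalized reads (UV) and 236 and 531 (no UV) in EGFP+ cells, against 138 and 300.4 (UV) and 251 and 103 (no UV) in tdTomato+ cells. The populations overlapped and the gene did not pass by limma (1.21 ± 0.43, adjusted p = 0.0683), but passed as higher by edgeR (0.0347) and by DESeq2 (0.0291) and under both other scalings. Trim25, which carries ubiquitin to the RNA sensor RIG-I, did not pass (0.25 ± 0.32, adjusted p = 0.579).

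Of 9 effectors that act on RNA, the oligoadenylate synthetases, the kinase Eif2ak2 and the Ifit proteins, only Ifit3 passed. That is 11.1%, against 28.9% of all genes tested, of which 9.66% were higher. Ifit3, which holds foreign RNA together with its relatives, had 1057 and 538 normalized reads (UV) and 362 and 1281 (no UV) in EGFP+ cells, against 50.4 and 179 (UV) and 19.6 and 2.85 (no UV) in tdTomato+ cells. All EGFP+ libraries lay above all tdTomato+ libraries, and tdTomato+ libraries without UV were the lowest (4.62 ± 0.70, adjusted p = 0.00148). Reads of Ifit3 may be shared with its near copy Ifit3b. Oasl1, which holds back translation of Irf7, had 24.3 and 0 normalized reads (UV) and 65.7 and 35.2 (no UV) in EGFP+ cells, against 82.5 and 60.3 (UV) and 0 and 0 (no UV) in tdTomato+ cells. High and low libraries were found in both populations, and over all mice Oasl1 did not pass (0.89 ± 1.08, adjusted p = 0.566). Ifit1 had 495 and 1.08 and Ifit2 had 215 and 3.23 normalized reads in UV EGFP+ replicates 1 and 2, a gap that spanned the values of the tdTomato+ libraries. Oas2 had 0 to 2.85 normalized reads in every library. Oas1a, Oas3 and Oasl2 of the synthetase family and Eif2ak2, a kinase that stops translation, did not pass either. Differences of the 8 genes that did not pass ran from -1.998 to 1.496.

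Membrane and other antiviral effectors split, 5 higher and 3 lower of 11. Bst2, the tetherin that holds budding virions on the cell surface, had 2264 and 2959.6 normalized reads (UV) and 760.2 and 1406 (no UV) in EGFP+ cells, against 492 and 479 (UV) and 231 and 208 (no UV) in tdTomato+ cells. Again all EGFP+ libraries lay above, and in both populations both UV libraries lay above both no UV libraries (2.32 ± 0.23, adjusted p = 0.000161). Bst2 also marks plasmacytoid dendritic cells, whose marker Siglech had 0 normalized reads in the 4 EGFP+ libraries and at most 1.43 in tdTomato+ libraries. Their marker Irf8 had 37.8 and 1.08 (UV) and 121 and 154 (no UV) in EGFP+ cells. In tdTomato+ cells Irf8 had 64.1 and 36.2 (UV) and 10.8 and 1.43 (no UV). Tcf4, another of their markers, had 833 to 1237 in EGFP+ and 545 to 1500 in tdTomato+ libraries. The part of these cells in the values of Bst2 was not tested. Rtp4, a chaperone of receptors with antiviral activity, had 1122 and 996 normalized reads (UV) and 1675 and 1431 (no UV) in EGFP+ cells, against 170.4 and 355 (UV) and 211 and 237 (no UV) in tdTomato+ cells. The populations did not overlap (2.44 ± 0.26, adjusted p = 0.000217). Xaf1, a partner of the apoptosis inhibitor XIAP, had 1017 and 924 normalized reads (UV) and 638 and 845 (no UV) in EGFP+ cells, against 349 and 299.5 (UV) and 451 and 305 (no UV) in tdTomato+ cells. It too was above in every EGFP+ library (1.28 ± 0.21, adjusted p = 0.00247). Mx2, of the family of dynamin-like GTPases, is annotated by GENCODE as a polymorphic pseudogene. Whether it gives a working protein in these mice was not tested. Mx2 had 182 and 499 normalized reads (UV) and 114 and 321 (no UV) in EGFP+ cells, against 30.2 and 95.5 (UV) and 88.0 and 51.4 (no UV) in tdTomato+ cells. All of its EGFP+ libraries lay above, by a margin that was narrow for the lowest of them (1.98 ± 0.57, adjusted p = 0.0316), and 7 of the 8 libraries ended the call when left out, with an adjusted p of up to 0.163 without no UV EGFP+ replicate 2. Ifi35 had 1732 and 1704 normalized reads (UV) and 1353 and 1417 (no UV) in EGFP+ cells, against 1369.9 and 1304 (UV) and 1008 and 786 (no UV) in tdTomato+ cells. Its difference was small and the populations overlapped (0.50 ± 0.15, adjusted p = 0.0333). The call was lost with the mouse as a block (adjusted p = 0.0515) and without 4 of the 8 single libraries (up to 0.0813, without no UV EGFP+ replicate 2). Rsad2, or viperin, Mx1 and Ifi44 did not pass (1.98 ± 0.94, 0.16 ± 0.86 and -0.77 ± 1.70).

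On the lower side of the same group stood the interferon-induced transmembrane proteins, which keep viruses from fusing with cell membranes. Ifitm3 had 11474 and 8599 normalized reads (UV) and 5484 and 5079 (no UV) in EGFP+ cells, against 22220.5 and 32728 (UV) and 22663 and 28388 (no UV) in tdTomato+ cells. It was the most abundant of the 44 genes per kilobase in both populations, and all EGFP+ libraries lay below all tdTomato+ libraries (-1.85 ± 0.16, adjusted p = 8.11e-05). Ifitm1 had 0.839 and 0 normalized reads (UV) and 0 and 7.61 (no UV) in EGFP+ cells, against 669.8 and 2186 (UV) and 113 and 148 (no UV) in tdTomato+ cells. EGFP+ libraries were at or near 0 and tdTomato+ libraries with UV were the highest (-7.64 ± 0.86, adjusted p = 0.000315). Ifi27 had 1617 and 913 normalized reads (UV) and 961 and 1107 (no UV) in EGFP+ cells, against 3008 and 2876 (UV) and 3418 and 3547 (no UV) in tdTomato+ cells. It lay lower in every EGFP+ library (-1.51 ± 0.19, adjusted p = 0.000558). Ifitm2, a relative outside the 44 genes, was also lower (-1.95 ± 0.11, adjusted p = 8.86e-06).

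The group listed as sensors gave 3 lower genes of 6 and none that was higher. Its median log2 difference was -2.42, or -3.12 with genes at 0 reads set to their bounds. The 3 are members of the Ifi200 family, whose proteins bind DNA. Ifi202b had 0.839 and 0 normalized reads (UV) and 0.832 and 0 (no UV) in EGFP+ cells, against 922 and 1667 (UV) and 1764 and 3214 (no UV) in tdTomato+ cells. It came to 2 reads in all EGFP+ libraries against 6860 in all tdTomato+ libraries, which is 3854-fold lower with a 95% interval of 1070 to 31830 that covers counting error only (adjusted p = 7.5e-06). Ifi204 had 0 normalized reads in every EGFP+ library, against 97.1 and 72.3 (UV) and 2.93 and 0 (no UV) in tdTomato+ cells. With 0 against 187 reads it was at least 70-fold lower, taking 3 reads over the group as the floor (adjusted p = 0.00424), although no UV tdTomato+ replicate 2 was at 0 as well. Ifi205 also had 0 in every EGFP+ library, against 15.6 and 15.8 (UV) and 11.7 and 64.2 (no UV) in tdTomato+ cells. At 0 against 91 reads it was at least 34.1-fold lower (adjusted p = 0.00268). These family members are near copies of each other and their reads may have been split, so the single values are uncertain. Markers of macrophages and dendritic cells, where this family is well known, were also lower in EGFP+ libraries. All 8 of them were above 0 in a tdTomato+ library of each arm, with sums of 1590 to 5870 (UV) and 1440 to 9040 (no UV), and 3 to 5 were above 0 in EGFP+ libraries, with sums of 6.47 to 98.2 (UV) and 216 to 419 (no UV). In tdTomato+ libraries, replicates 1 and 2, these sums were 5867 and 1586 (UV) and 9042 and 1436 (no UV). None of the 3 genes ordered the tdTomato+ libraries as the sums did. The part of macrophages and dendritic cells in the result was not tested. Zbp1, a sensor of left-handed nucleic acid, had 35.2 and 0 normalized reads (UV) and 43.2 and 59.9 (no UV) in EGFP+ cells, against 40.3 and 114 (UV) and 43.0 and 9.99 (no UV) in tdTomato+ cells. The populations overlapped and Zbp1 did not pass (-1.14 ± 1.16, adjusted p = 0.503), nor did Ddx58, which encodes RIG-I, and Ifih1, which encodes MDA5 (0.81 ± 0.58 and -0.46 ± 0.72).

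Of the ADP-ribosyltransferase group, which supports interferon signalling, 1 gene of 3 passed, 33.3% against 28.9% of all genes tested. Parp9 had 216 and 403 normalized reads (UV) and 260.3 and 268 (no UV) in EGFP+ cells, against 129 and 98.3 (UV) and 160.4 and 149.9 (no UV) in tdTomato+ cells. The populations did not overlap, EGFP+ being higher (1.07 ± 0.31, adjusted p = 0.0311), but the call was lost with the mouse as a block (adjusted p = 0.0568) and without 6 of the 8 single libraries (up to 0.0947, without no UV EGFP+ replicate 2). Dtx3l, the ubiquitin ligase that pairs with it, had 178 and 107 normalized reads (UV) and 136 and 190.2 (no UV) in EGFP+ cells, against 135 and 91.8 (UV) and 147 and 191 (no UV) in tdTomato+ cells. The populations overlapped (0.13 ± 0.35, adjusted p = 0.814). Parp9 and Dtx3l lie on opposite strands and share 458 exon bases, and the kit does not mark the strand, so reads there cannot be told apart. Parp14 had 132 and 38.8 normalized reads (UV) and 109 and 107 (no UV) in EGFP+ cells, against 40.3 and 107 (UV) and 92.9 and 62.8 (no UV) in tdTomato+ cells. It overlapped between the populations as well (0.31 ± 0.55, adjusted p = 0.705).

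**Figure D2:**
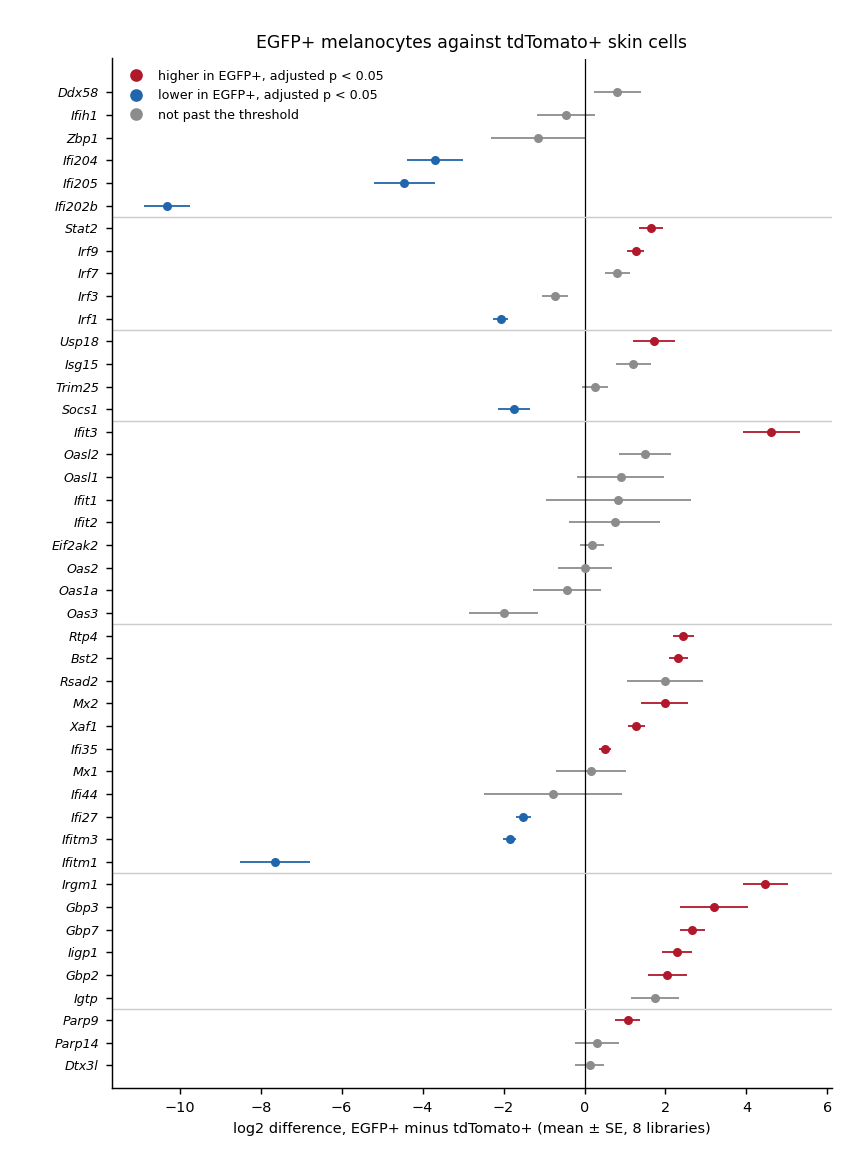
Log2 difference, EGFP+ minus tdTomato+ over all 4 mice, for each of the 44 genes, with lines between role groups. Points are estimates and bars their standard errors, red for higher, blue for lower and grey for genes that did not pass; Irgm1 and Ifit3 lie farthest on the higher side at 4.47 and 4.62, and Ifi202b and Ifitm1 farthest on the lower side at -10.31 and -7.64.

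Levels per kilobase of exon allow a rough comparison between genes. Lengths took every base of any annotated GENCODE exon, which can exceed the length of the RNA, and the annotation used for counting is not known. Levels and ranks are therefore approximate, and the SDs below span both arms. Ifitm3 led in both populations, with 11300 ± 4411 normalized reads per kilobase in EGFP+ and 39080 ± 7394 in tdTomato+ libraries (SD, n = 4 each). Bst2 held rank 2 of the 44 in EGFP+ and rank 7 in tdTomato+ libraries. Irgm1 held rank 3 with 1121 ± 420 per kilobase in EGFP+ and rank 17 with 60.3 ± 42.0 in tdTomato+ libraries (SD, n = 4 each). In the other direction, Ifi202b had rank 40 in EGFP+ and rank 4 in tdTomato+ libraries, and Irf1 ranks 10 and 3. Within a mouse, the tdTomato+ level of Irgm1 was 6.92% and 7.44% (UV) and 8.03% and 0.992% (no UV) of the EGFP+ level. The summed melanocyte markers reached the 4.09% and 7.22% (UV) and 1.06% and 0.45% (no UV) given above, and Bst2 stood at 21.7% and 16.2% (UV) and 30.4% and 14.8% (no UV). The part of melanocyte RNA in the tdTomato+ values was not tested.

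Taken separately, the arms gave similar numbers of genes. With UV, 8 of the 44 were higher and 8 lower in EGFP+ than in tdTomato+ cells, where 5.03% and 12.9% of all genes tested were, and the median log2 difference was 0.277 against -0.27 over all genes tested. That median was 0.964 without UV EGFP+ replicate 2 and 0.152 without UV EGFP+ replicate 1. Without UV, 9 were higher and 6 lower, where 6.67% and 12.5% of all genes were, and the median was 1.025 against -0.266, or 0.555 without no UV tdTomato+ replicate 2. The difference between the medians of the arms was not tested. Higher in both arms were Irf9, Stat2, Bst2, Rtp4, Gbp7 and Irgm1, and lower in both were Ifi202b, Ifi205, Irf1, Ifitm1, Ifitm3 and Ifi27. Xaf1 and Iigp1 passed as higher and Ifi204 and Socs1 as lower with UV alone, and Ifit3, Oasl1 and Gbp2 passed as higher without UV alone by limma. Both edgeR and DESeq2 also called Xaf1 (adjusted p = 0.0473 and 0.0235) and Iigp1 (0.012 and 0.00795) without UV, and Ifit3 (0.0108 and 0.00321) and Gbp2 (0.0252 and 0.0179) with UV. No gene named for a single arm passed limma's or edgeR's test of the difference between the arms, given at the end, and by DESeq2 Oasl1 passed it (adjusted p = 0.0148). Oasl1 without UV had 116 reads in EGFP+ against 0 in tdTomato+ libraries, at least 29.6-fold higher (adjusted p = 0.0341). The calls rested on single libraries more often than those over all mice, since 6 of the 16 calls with UV and 5 of the 15 without UV held whichever library was left out. With UV, 2 were higher without UV tdTomato+ replicate 1, and without UV, 3 were higher when no UV EGFP+ replicate 2 was left out. With the mouse as a block the calls of Ifi205 (adjusted p = 0.0548) and Stat2 (0.0625) with UV were lost, and Mx2 with UV (0.0477) and Gbp3 without UV (0.0429) were gained.

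**Figure D3:**
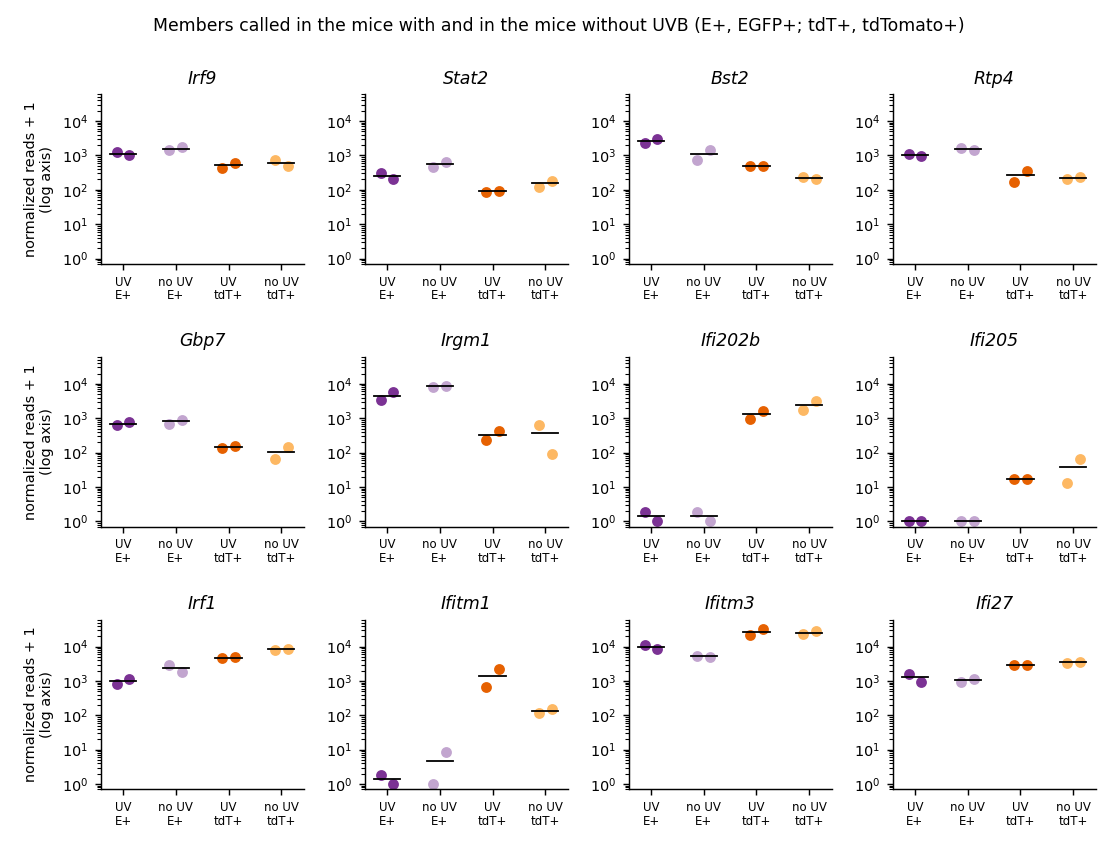
Normalized reads + 1 on a log axis in each library (points) and the mean of each group of 2 (bars) for the 12 genes called both with and without UV, EGFP+ (E+) left of tdTomato+ (tdT+) and UV left of no UV. In the first 6 panels, Irf9 to Irgm1, every EGFP+ point lies above every tdTomato+ point, and in the last 6, Ifi202b to Ifi27, every EGFP+ point lies below.

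Upstream of these genes, interferons themselves were barely read. Of 21 ligand genes, 2 reached the filter, and neither passed by limma, edgeR or DESeq2 in the population comparison, with none at an unadjusted p under 0.05. Ifng, Ifnk, Ifnl2 and Ifnl3 had 0 reads in every library. Receptors differed by chain, 2 higher and 2 lower of 6. Ifnar2, a chain of the type I receptor, had 1768 and 2095 normalized reads (UV) and 2015 and 2191 (no UV) in EGFP+ cells, against 889.7 and 954 (UV) and 719.9 and 487 (no UV) in tdTomato+ cells. EGFP+ libraries were all above (1.44 ± 0.17, adjusted p = 0.000435), while its partner Ifnar1 did not pass (-0.27 ± 0.57, adjusted p = 0.751). Il10rb, a chain that the type III receptor shares with interleukin receptors, was higher (1.76 ± 0.20, adjusted p = 0.000294), and its partner Ifnlr1 was lower (-3.10 ± 0.81, adjusted p = 0.0212). Ifnlr1 had 3.36 and 0 normalized reads (UV) and 24.1 and 24.7 (no UV) in EGFP+ cells, against 48.6 and 64.9 (UV) and 136 and 32.8 (no UV) in tdTomato+ cells. Its EGFP+ libraries all lay below its tdTomato+ libraries, no library was above 136, and 5 of 8 libraries ended the call when left out (up to 0.0903, without UV tdTomato+ replicate 2). Ifngr1, a chain of the interferon gamma receptor, had 638 and 914 normalized reads (UV) and 693 and 663 (no UV) in EGFP+ cells, against 988 and 848 (UV) and 1232 and 1413 (no UV) in tdTomato+ cells. The populations overlapped (-0.61 ± 0.18, adjusted p = 0.0333), and the call was lost with the mouse as a block (0.0533) and without 6 of 8 libraries (up to 0.115, without UV tdTomato+ replicate 1).

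None of the 7 Janus kinase and STAT genes outside the 44 passed by limma, with 1 at an unadjusted p under 0.05, Stat3 (0.69 ± 0.23, adjusted p = 0.0575), which passed by edgeR and by DESeq2. Of 5 further interferon regulatory factors, Irf4, which acts with MITF in melanocytes, had 796 and 934 normalized reads (UV) and 637 and 614 (no UV) in EGFP+ cells, against 13.7 and 72.3 (UV) and 2.93 and 9.99 (no UV) in tdTomato+ cells. EGFP+ libraries were far above (5.64 ± 0.59, adjusted p = 0.000212). Irf5, a factor of myeloid cells, was lower (-6.73 ± 0.71, adjusted p = 0.000222). Among 11 sensing genes tested, Tmem173, which encodes STING, was higher (1.01 ± 0.19, adjusted p = 0.0049) and the adaptor Myd88 was lower (-0.64 ± 0.19, adjusted p = 0.0356). Of 8 negative regulators, the phosphatase Ptpn6 and the nuclease subunit Rnaseh2a were lower (-4.78 ± 0.98 and -0.998 ± 0.26, adjusted p = 0.00688 and 0.0204). Leaving out single libraries ended the calls of Myd88 and Rnaseh2a in 6 and that of Ptpn6 in 5 of 8 cases, with adjusted p of up to 0.16 without UV tdTomato+ replicate 1 for Myd88, and of up to 0.137 and 0.0867 without no UV tdTomato+ replicate 1 for Rnaseh2a and Ptpn6.

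A further list of 35 interferon-stimulated genes went in both directions, with 6 higher and 8 lower, 40% in all. Among all genes tested 9.66% were higher and 19.2% lower, 28.9% in all. The list had a median log2 difference of 0.273, against -0.334 over all genes tested. Of its 9 interferon-inducible GTPases, 4 were higher, and Gbp4, Gbp5, Gbp8, Gbp9 and Irgm2 did not pass, with log2 differences from -0.64 ± 0.87 for Gbp8 to 0.86 ± 0.87 for Irgm2. Tgtp2 had 347 and 819 normalized reads (UV) and 1168 and 496 (no UV) in EGFP+ cells, against 37.6 and 15.8 (UV) and 26.4 and 67.1 (no UV) in tdTomato+ cells. No tdTomato+ library reached the lowest EGFP+ library (4.27 ± 0.52, adjusted p = 0.000492), and its near copy Tgtp1, with which it may share reads, gave 4.61 ± 0.67 (adjusted p = 0.00119). Gbp6 and Ifi47 were higher by 2.43 ± 0.58 and 2.03 ± 0.39 (adjusted p = 0.0138 and 0.00494). Lgals3bp, a secreted glycoprotein, was higher by 3.14 ± 0.25 (adjusted p = 4.95e-05), and Pml, the organiser of nuclear bodies, by 1.24 ± 0.36 (adjusted p = 0.0324). The lower genes were Ifi203 and Mnda of the Ifi200 family, Isg20, Ifitm2, Ifi30, Psmb9 and the chemokines Cxcl9 and Cxcl10, with log2 differences from -4.98 ± 0.72 for Ifi203 to -0.88 ± 0.22 for Psmb9. The call of Cxcl9 was lost with the mouse as a block (adjusted p = 0.0541). Left-out libraries ended the calls of Pml, Gbp6, Isg20, Psmb9, Cxcl9, Cxcl10 and Ifi47, with the highest adjusted p between 0.0565 for Ifi47 without no UV EGFP+ replicate 1 and 0.171 for Cxcl10 without that same library. Without mouse 1 the calls of Tgtp1 and Tgtp2 were lost as well. Their log2 differences were then 4.42 and 3.63, with 1 library left in each no UV group.

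**Figure D4:**
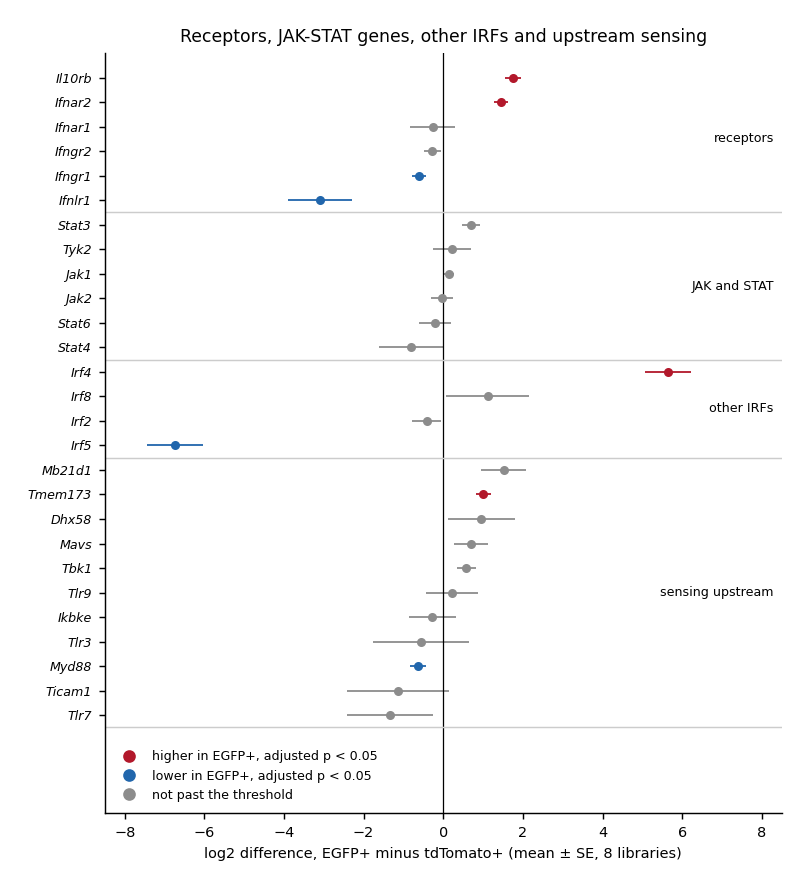
Log2 difference, EGFP+ minus tdTomato+ over all 4 mice, with standard errors, for receptor, Janus kinase and STAT, further interferon regulatory factor and sensing genes. Red marks higher, blue lower and grey genes that did not pass; Ifnar2, Il10rb, Irf4 and Tmem173 are red, and Ifngr1, Ifnlr1, Irf5 and Myd88 are blue.

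In EGFP+ cells no interferon response gene passed the test of UV against no UV. The count was 0 of 44 by limma, where 0.0166% of all genes tested passed, with 2 genes higher and 3 lower at an unadjusted p under 0.05. By edgeR 1 was lower, and by DESeq2 2 were higher and 1 lower. The median log2 difference was -0.158, against -0.11 over all genes tested, and lay between -0.491 (without no UV EGFP+ replicate 1) and 0.000 (without UV EGFP+ replicate 2). Irf1 had 796 and 1172 normalized reads in UV libraries, against 2934 and 1813 in no UV libraries. Its UV libraries were the lower ones (-1.26 ± 0.27, adjusted p = 0.181 by limma, 0.0288 by edgeR and 0.00579 by DESeq2). Bst2 had 2264 and 2959.6 in UV libraries, against 760.2 and 1406 in no UV libraries, and Ifitm3 had 11474 and 8599 against 5484 and 5079. In both genes UV libraries lay above (1.32 ± 0.32 and 0.91 ± 0.23, adjusted p = 0.252 and 0.252 by limma, 0.0232 and 0.045 by DESeq2). Gbp2 and Stat2 gave -1.80 ± 0.67 and -1.12 ± 0.42 (adjusted p = 0.425 and 0.433), with their UV libraries below. In all, UV libraries lay wholly above no UV libraries in 5 of the 44 genes and wholly below in 10, 11.4% and 22.7% against 12.7% and 20.7% of all genes tested (33.4% in all). Summed macrophage and dendritic cell markers were 6.47 to 98.2 in UV against 216 to 419 in no UV EGFP+ libraries, and their part was not tested. At this depth and number of mice the 95% interval of a gene, not adjusted for the number of genes, reached a median of 1.79 log2 units to either side. Calls needed an adjusted p under 0.05, so changes larger than that could go undetected too. The estimates of the 44 genes, none of them called by limma, ran from -3.51 to 1.32. Without UV EGFP+ replicate 1 the median over all genes tested moved from -0.11 to -0.265.

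In tdTomato+ cells the count was again 0 of 44 by limma, where 0.559% of all genes tested passed, but 7 were higher and 2 lower at an unadjusted p under 0.05. By edgeR 1 was higher and 1 lower, and by DESeq2 4 were higher and 1 lower. The median log2 difference was 0.109, against -0.086 over all genes tested. It was -0.207 without no UV tdTomato+ replicate 2, -0.123 without UV tdTomato+ replicate 2 and 0.508 without UV tdTomato+ replicate 1. Ifi204 had 97.1 and 72.3 normalized reads with UV, against 2.93 and 0 without UV. UV libraries were above, by a ratio of 48.7 with a counting interval of 16.4 to 238 (5.42 ± 0.97, adjusted p = 0.0614). Oasl1 had 82.5 and 60.3 with UV, against 0 in both libraries without UV. That is at least 41-fold higher against a floor of 3 reads over the group (adjusted p = 0.139, and past the threshold by DESeq2). Ifit3 had 50.4 and 179 with UV, against 19.6 and 2.85 without UV, and Ifitm1 had 669.8 and 2186 against 113 and 148. UV libraries were above in both genes (3.43 ± 0.98 and 3.21 ± 1.22, adjusted p = 0.186 and 0.306 by limma). Ifit3 passed by DESeq2 (adjusted p = 0.00707), and Ifitm1 by edgeR (0.0237) and by DESeq2 (0.000336). Bst2, Irf7 and Ifi35 gave 1.143 ± 0.32, 1.11 ± 0.45 and 0.59 ± 0.21 (adjusted p = 0.184, 0.333 and 0.276 by limma), with UV libraries above. Of these, Bst2 passed by DESeq2 (0.0457). Iigp1 had 88.0 and 86.2 with UV, against 261 and 479.6 without UV. UV libraries lay below (-2.01 ± 0.53, adjusted p = 0.157 by limma, 0.0382 by edgeR and 0.0073 by DESeq2). They did so for Irf1 too (-0.81 ± 0.27, adjusted p = 0.246 by limma). UV libraries lay wholly above in 8 of the 44 genes and wholly below in 8, 18.2% each against 21.6% and 24.5% of all genes tested (46.1% in all). Without no UV tdTomato+ replicate 1 the median over all genes tested moved from -0.086 to -0.15.

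Some markers of cell types moved with UV in tdTomato+ cells beside these values. Summed melanocyte markers were 23400 to 44900 with UV and 2660 to 5610 without UV, all 9 of them above 0 in every library. Summed T and NK cell markers were 1.85 to 126 with UV, where 1 to 4 of 6 were above 0, and 838 to 1180 without UV, where 4 of 6 were. Summed over 3 Langerhans cell markers, the values were 9730 to 10100 with UV and 11800 to 16400 without UV. Of the 3, Cd207, which defines these cells, had 0 normalized reads in both UV libraries, against 1237 and 271 without UV. Cd74 had 763 and 527 with UV, against 6548 and 1323 without UV. Epcam did not fall, with 8968 and 9550 with UV against 8657 and 10202 without UV. Summed neutrophil markers were 1190 to 1800 with UV and 2330 to 7870 without UV, and summed fibroblast markers 8280 to 11800 and 14700 to 17400. Both lists split. Il1r2 was lower with UV, S100a8 and S100a9 overlapped, and Cxcr2 was higher (616 and 723 against 547 and 478). Col1a1, Col1a2, Col3a1 and Lum were lower with UV and Dcn overlapped (7252 and 9350 against 7967 and 8617). Pdgfra was higher (66.0 and 242 against 28.4 and 37.1). Summed keratinocyte markers were 198000 to 212000 with UV and 220000 to 294000 without UV, but the keratins of differentiated keratinocytes fell. Krt1 had 54.1 and 16.7 normalized reads with UV, against 5874 and 10598 without UV (-7.98 ± 0.80, adjusted p = 0.0133 by limma), and Krt10 had 673 and 351 with UV, against 12359 and 18394 without UV (-4.95 ± 0.37, adjusted p = 0.0101). The part of these cell types in the results was not tested. Among the further interferon-stimulated genes, the chemokine Cxcl10 was the one that passed in tdTomato+ cells by limma and by edgeR, with 542 and 518 normalized reads with UV against 5709 and 6056 without UV. UV libraries lay below (-3.47 ± 0.45, adjusted p = 0.0255), and the call was lost without 7 of the 8 single libraries (up to 0.233, without UV tdTomato+ replicate 1). By DESeq2 1 was higher and 4 were lower there, Lgals3bp, Psmb9, Cxcl10, Tap1 and Cxcl9 together.

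The change with UV did not pass as different between EGFP+ and tdTomato+ cells for any of the 44 genes by limma, where 0.00553% of all genes tested passed. At an unadjusted p under 0.05, 1 was higher and 4 were lower, by edgeR 0 were called, and by DESeq2 2 were lower, Oasl1 and Ifitm1. The median difference of the log2 changes, EGFP+ minus tdTomato+, was -0.419, against -0.121 over all genes tested. Leaving out no UV EGFP+ replicate 1 gave -0.697 and leaving out no UV tdTomato+ replicate 2 gave 0.025, so its sign rested on 1 library. Oasl1 had 24.3 and 0 (UV) against 65.7 and 35.2 (no UV) normalized reads in EGFP+ cells, while in tdTomato+ cells it was read with UV alone. Its difference of changes was -9.45 ± 2.15 (adjusted p = 0.263). Ifi204, which was at 0 in all EGFP+ libraries, Ifit3 and Ifitm1 gave -5.42 ± 1.37, -3.29 ± 1.39 and -4.32 ± 1.72 (adjusted p = 0.287, 0.487 and 0.463). Ifitm3 was the gene on the higher side (0.82 ± 0.32, adjusted p = 0.454).

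**Figure D5:**
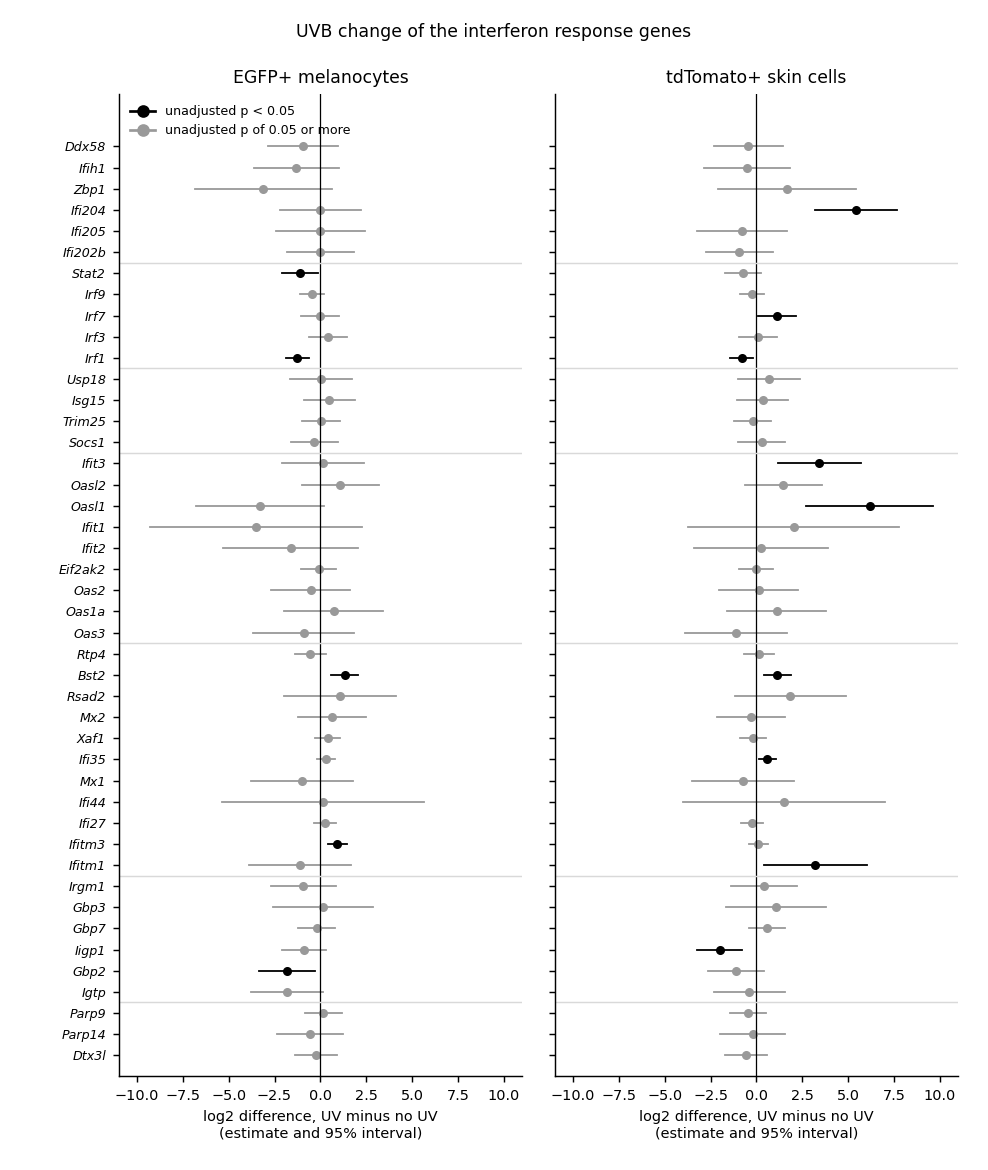
Log2 difference, UV minus no UV, with its 95% interval, for each of the 44 genes in EGFP+ cells (left) and tdTomato+ cells (right), black where the unadjusted p was under 0.05. Irf1 lies below 0 and Bst2 above 0 in both panels, and Oasl1, Ifi204, Ifit3 and Ifitm1 are black and above 0 in the tdTomato+ panel alone.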

How the data were processed

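RNA of sorted EGFP+ and tdTomato+ cells of 4 mice was sequenced in 8 libraries with an unstranded poly(A) kit, per the labels' protocols. Per the submitters' processing notes, TopHat2 2.0.12 and Cufflinks 2.2.1 were among the tools, beside FastQC and DESeq2 1.14.1, and the build was mm10. Which tool counted reads, and with which annotation, is not given in the sources used here. Signal values deposited by the authors are reads divided by 1 size factor per library, per the file headers. Whole reads were recovered from them, with 195368 of 195368 values (100%) within 0.01 of a whole number. The log2, score and p-value columns deposited by the authors were not used for results.

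Values were tested as log2(value + 1) with limma 3.58.1 (R 4.3.3, intensity trend), with 4 group means over all 8 libraries and Benjamini-Hochberg adjustment over the 18070 genes whose mean reached 1 in any group. The threshold was 0.05. The same reads went through edgeR 4.0.16 and DESeq2 1.42.0 as alternatives, beside other pseudocounts, filters and scalings, single libraries or mouse 1 left out, and the mouse as a block. Simulated data were used to check the fits. Nothing beyond the mice separates the replicates, so p-values measure the spread between 2 mice per group. EGFP+ and tdTomato+ libraries of the same number come from the same mouse, and their deviations correlated at 0.0873 (no UV) and 0.0562 (UV). Named with values in every library are genes past the threshold in any comparison or with the smallest p of their role group in a UV comparison. The 44 genes and all lists were chosen with earlier results of these data known. Exon lengths and overlaps come from GENCODE M21 and promoter windows from RefSeq, and intervals and floors of read counts cover counting error only. Some genes of the pathway lists are not reported here.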

Additional observations from a re-analysis of the deposited data

Results flagged for a closer look

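In 3 of 81 sets of 4 libraries that were looked at, 1 library lay far from the other three, by Dixon's criterion on its gap to the nearest of them. Ifi205 had 64.2 normalized reads in tdTomato+ replicate 2 without UV, against 11.7 to 15.8 in the other tdTomato+ libraries. Rsad2 had 57.7 in tdTomato+ replicate 1 with UV, against 3.91 to 9.27 in the other tdTomato+ libraries. Ifi44 had 1.43 in tdTomato+ replicate 2 without UV, against 21.1 to 24.4 in the other tdTomato+ libraries. The criterion flags about 5% of sets of 4 values from a single normal distribution. The sets here pool both arms on an untransformed scale, so that rate need not hold for them, and no cause was tested.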

How the results depend on the processing

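Over all mice, 16 of the 23 calls held whichever library was left out, and 13 held under every alternative run, while no value reversed. Of 2677 single values recomputed, 2203 kept their call, 382 lost it and 92 gained it. Another scaling moved the median of all genes tested from -0.334 to 0.018 (quantile normalization) or -0.126 (without the 20 most abundant genes). All genes then split into 2618 higher and 2671 lower or 2655 and 2895, against 1746 and 3471.

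For EGFP+ against tdTomato+ over all mice, the median log2 difference was 1.311 with quantile normalization and 1.131 without mouse 1. Leaving out mouse 1 kept 1 library in each no UV group, and calls of genes outside the 44 were lost too. With UV, 13 were higher by DESeq2, 4 were higher and 4 lower without mouse 1, 5 were lower with the compared libraries alone, and the median was 1.005 with quantile normalization. Without UV, 14 were higher with quantile normalization, without the 20 most abundant genes and by DESeq2, and without mouse 1 the count of lower genes was 2 and the median 1.786. For UV in EGFP+ cells, 2 were higher by DESeq2, and 1 was lower by edgeR and by DESeq2. For UV in tdTomato+ cells, 4 were higher by DESeq2, 3 without mouse 1, 1 by edgeR and 1 with quantile normalization, and 1 was lower by edgeR and by DESeq2. For the difference of UV changes, 2 were lower by DESeq2 and 1 without mouse 1. Over all genes tested, UV calls in EGFP+ cells were 17 higher and 103 lower by edgeR and 84 and 271 by DESeq2, against 0 and 3 by limma, and in tdTomato+ cells 132 and 108 or 349 and 268, against 63 and 38. Between the populations edgeR called 1892 higher and 3163 lower over all mice. The causes were not tested.

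Leaving out single libraries, with the lone library of a group assumed to vary like the other groups, gave 9 to 16 higher and 7 to 9 lower genes over all mice (median 0.218 to 0.889), 2 to 8 and 5 to 9 with UV (0.152 to 0.964) and 3 to 11 and 3 to 8 without UV (0.555 to 1.431). It gave 0 to 3 lower genes for UV in EGFP+ cells (3 without UV EGFP+ replicate 1), 0 to 4 higher and 0 to 1 lower in tdTomato+ cells (4 and 1 without no UV tdTomato+ replicate 1) and 0 to 2 lower for the difference (2 without either of these libraries). With the mouse as a block, 3 calls over all mice were lost (Usp18, Ifi35, Parp9) and 1 was gained (Igtp), and the calls it changed by arm stand with those results.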
